A study of Mus musculus with 8 samples.

Results

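The 10 genes described here are expressed by the endothelial cells that form the blood-brain barrier: Cldn5, Cdh5, Pecam1, Slco1a4, Abcb1a, Slc2a1, Mfsd2a, Flt1, Tek and Itm2a. They were listed by name for their known roles, with earlier results of these data known. All 10 were found among the 31417 genes of the count table, and all 10 were among the 16228 genes that passed the filter on low counts and were tested. The study compared mice with a Dclk3 knockout (KO) and wild-type mice (WT), both aged 12 months, by poly(A) RNA sequencing of hippocampal tissue. Dclk3 codes for doublecortin-like kinase 3, a brain kinase. Each genotype had 4 libraries, each from the RNA of a single hippocampus, prepared with a kit that keeps strand. The sources used here do not give the deleted part of Dclk3, the cells in which it was deleted, or the strain, sex and litters. The labels do not say that the libraries of a genotype came from separate animals, so p-values measure the spread between these samples, which may be partly technical.

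Brain endothelial cells are joined by continuous tight junctions and pass few vesicles, so that most nutrients, drugs and hormones cross the vessel wall through named transporters. This state is kept up by signals from pericytes, astrocytes and neurons, among them Wnt ligands read by Frizzled receptors on the endothelium. In bulk tissue these genes are read from a minority of cells, and fewer endothelial cells cannot be told apart from less RNA per endothelial cell.

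Libraries held 29301974 to 36552757 counts. Dclk3, the check of the labels, had 7.71 ± 1.42 CPM in KO and 26.7 ± 8.51 CPM in WT (CPM, counts scaled to a fixed library total, mean ± SD, n = 4 each), without overlap (log2 fold change -1.79, SE 0.22; edgeR adjusted p = 0.234). Counts per gene do not show which part of Dclk3 the remaining KO reads cover. KO replicate 4 and WT replicate 2 stood apart from the other libraries. KO replicate 4 had 20 genes, and WT replicate 2 had 49 genes, more than 1 log2 unit above every other library, on the scale of log2(CPM + 0.5), against 0 to 3 genes in each of the other 6. Results on the barrier genes are therefore also given without these libraries, a choice made after the values were seen.

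No barrier gene differed between KO and WT beyond the spread of the libraries. edgeR's quasi-likelihood test with Benjamini-Hochberg adjustment over all genes called 0 of the 10 at an adjusted p under 0.05, where 0.0% of all tested genes (0 of 16228) were called. Dclk3 itself was not called at this threshold (edgeR adjusted p = 0.234). The 0 calls therefore do not show that the barrier genes were unchanged. At an unadjusted p under 0.05 there were also 0 of the 10, against 6.16% of all genes (1000 genes). The 4 KO and 4 WT libraries overlapped for each of the 10 genes, while they did not overlap for 3.80% of all genes. DESeq2 called 5 genes and limma-voom 0, none of them a barrier gene in either. The fitted log2 fold change was above 0 for 9 of the 10 genes, against 50.1% of all genes. The 10 genes share the same libraries, so these signs are not independent. The median of the 10 genes was 0.07, against 0.00029 over all genes, whose 5th and 95th percentiles were -0.22 and 0.40. Without KO replicate 4 the sign was above 0 for 6 of 10 and the median was 0.04. Without both KO replicate 4 and WT replicate 2 it was above 0 for 5 of 10, with a median of 0.0022. By limma-voom with quality weights it was above 0 for 4 of 10, with a median of -0.0059.

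Per length of transcript, the genes fell into a high and a low tier. Levels are reads per kilobase of exon, scaled to the library total as for CPM (RPKM), over the union of each gene's exons. Itm2a, which encodes a type II membrane protein enriched in brain endothelium, stood highest with 35.7 ± 3.55 RPKM in KO and 34.2 ± 6.04 RPKM in WT. Slc2a1, the glucose transporter GLUT1, followed with 29.6 ± 8.75 RPKM in KO and 24.8 ± 2.08 RPKM in WT, and the tight junction protein gene Cldn5 had 27.1 ± 5.85 RPKM in KO and 26.8 ± 4.69 RPKM in WT. Slc2a1 and Cldn5 did not differ beyond their spread, their means being 0.039 of the larger SD apart over all libraries. Between Cldn5 and the next gene the gap was 3.67 SD.

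The remaining 7 genes had mean levels under 10 RPKM in both genotypes. Slco1a4 had 9.45 ± 1.11 RPKM in KO and 8.40 ± 0.674 RPKM in WT. Mfsd2a had 7.58 ± 1.40 RPKM in KO and 7.62 ± 1.32 RPKM in WT. Abcb1a had 7.17 ± 1.44 RPKM in KO and 6.11 ± 0.836 RPKM in WT. These neighbours and Flt1, with 6.63 ± 0.993 RPKM in KO and 6.43 ± 0.588 RPKM in WT, were at most 1.05 SD apart from the next in order. Flt1 lay 2.34 SD above Pecam1. Pecam1 had 4.87 ± 0.974 RPKM in KO and 4.62 ± 0.509 RPKM in WT, Cdh5 had 4.57 ± 0.920 RPKM in KO and 4.48 ± 0.899 RPKM in WT, and Tek had 4.26 ± 0.378 RPKM in KO and 4.02 ± 0.486 RPKM in WT. Among these 3, neighbours lay within 0.454 SD of each other. The order in the lower tier depends on the length used. With the longest transcript in place of the exon union, Slco1a4 had 15.0 in place of 8.92 RPKM over all libraries, Flt1 12.8 in place of 6.53 and Pecam1 8.59 in place of 4.74, which put Flt1 and Pecam1 above Mfsd2a.

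**Figure D1:**
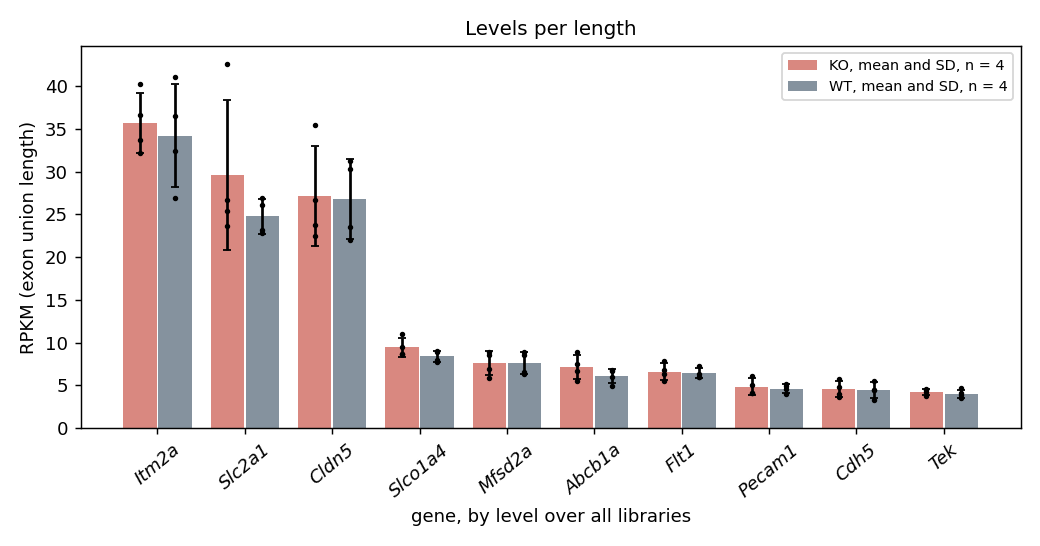
Levels of the 10 genes in RPKM over exon union length, with genes on the horizontal axis in order of level, bars for the mean and SD of 4 KO and 4 WT libraries and points for single libraries. Itm2a, Slc2a1 and Cldn5 lie above 20 RPKM in every library, and the other 7 genes form a lower tier.

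The promoter letters of 4 genes are shown to set them beside their values: the high-tier genes Cldn5 and Itm2a, the organic anion carrier gene Slco1a4 and the VEGF receptor gene Flt1. Sequences are from RefSeq (build GRCm38.p6), run 5′ to 3′ on the gene's own strand, and cover 250 bases before the transcript start and 50 after it. Capitals mark GGAA and its reverse complement TTCC, the core letters bound by ETS factors such as Erg. The windows are chr6:141856171-141856470 (minus strand) for Slco1a4, chr5:147725962-147726261 (minus) for Flt1, chr16:18776597-18776896 (plus) for Cldn5 and chrX:107403311-107403610 (minus) for Itm2a. The choice of these 4 was made with their values known.
Slco1a4: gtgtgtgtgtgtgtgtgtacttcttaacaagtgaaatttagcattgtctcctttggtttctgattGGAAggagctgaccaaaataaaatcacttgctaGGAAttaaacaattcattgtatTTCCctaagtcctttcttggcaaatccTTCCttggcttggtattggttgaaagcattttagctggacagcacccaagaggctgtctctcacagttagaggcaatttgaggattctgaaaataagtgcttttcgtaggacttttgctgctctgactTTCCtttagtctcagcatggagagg
Flt1: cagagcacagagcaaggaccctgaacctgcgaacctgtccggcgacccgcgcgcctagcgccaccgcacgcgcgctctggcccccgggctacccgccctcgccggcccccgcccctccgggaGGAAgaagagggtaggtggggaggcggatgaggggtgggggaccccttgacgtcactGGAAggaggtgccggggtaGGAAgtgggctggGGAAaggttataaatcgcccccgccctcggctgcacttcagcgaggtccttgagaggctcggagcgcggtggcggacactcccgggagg
Cldn5: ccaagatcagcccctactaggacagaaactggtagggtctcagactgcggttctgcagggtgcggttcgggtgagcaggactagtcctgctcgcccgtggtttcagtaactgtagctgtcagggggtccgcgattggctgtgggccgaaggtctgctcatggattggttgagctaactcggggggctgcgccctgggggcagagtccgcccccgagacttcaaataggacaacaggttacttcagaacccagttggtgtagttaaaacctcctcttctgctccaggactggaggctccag
Itm2a: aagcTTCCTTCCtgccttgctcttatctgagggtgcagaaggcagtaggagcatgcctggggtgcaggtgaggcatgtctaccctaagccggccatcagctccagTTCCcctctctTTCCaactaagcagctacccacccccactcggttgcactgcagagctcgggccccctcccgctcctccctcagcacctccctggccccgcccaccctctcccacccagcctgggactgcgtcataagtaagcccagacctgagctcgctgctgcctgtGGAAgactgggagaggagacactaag

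The RefSeq table held windows for 8 of the 10 genes, all but Cdh5 and Pecam1. GGAA was found on either strand in 6 of 8, against 96.0% of 32851 windows of all genes. It was not found in the windows of Cldn5 and Slc2a1, and occurred 5 times each in Slco1a4, Abcb1a and Itm2a, 4 times in Flt1, 3 times in Mfsd2a and 2 times in Tek. The longer GGAAGT, which contains GGAA, was found in Flt1 alone, against 23.8% of all windows. TAAACA, a forkhead core, was found in Slco1a4 and Abcb1a (13.4% of all windows). ACAAAG, bound by SOX factors, was found in Abcb1a and Tek (18.7%), and CTTTGA, bound by TCF/LEF factors of the Wnt pathway, in Abcb1a and Mfsd2a (16.0%). Letters that match are a description of the window and not evidence of a bound site. The Abcb1a window lies 92986 bases from the start of that gene in GENCODE M21, so it is of another start than the one used for its position here.

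Among the junction and adhesion genes, none passed the test between genotypes. Cldn5 (ENSMUSG00000041378; mm10 16:18776847-18778262, plus strand, protein coding) encodes claudin-5, the main claudin of brain endothelial tight junctions. Its levels were 50.2, 37.8, 31.9 and 33.6 CPM in KO replicates 1 to 4, against 42.9, 31.1, 44.3 and 33.3 CPM in WT replicates 1 to 4. KO replicate 1 was highest and WT replicate 2 lowest, and the genotypes overlapped over nearly their whole range. The means were 38.4 ± 8.28 CPM in KO and 37.9 ± 6.64 CPM in WT, with a log2 fold change of 0.02 (SE 0.16, 95% interval -0.35 to 0.39; edgeR adjusted p = 0.987). Without KO replicate 1 the value was -0.13.

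Cdh5 (ENSMUSG00000031871; 8:104101625-104144511, plus strand) encodes VE-cadherin, the adhesion molecule of endothelial adherens junctions. It had 20.5, 15.5, 16.8 and 24.1 CPM in KO, against 19.0, 19.0, 23.3 and 14.01 CPM in WT, in the order of replicates 1 to 4. The highest value was in KO replicate 4 and the lowest in WT replicate 4, and the genotypes overlapped. The log2 fold change was 0.03 (SE 0.17, 95% interval -0.35 to 0.41; edgeR adjusted p = 0.981), and it was -0.098 without KO replicate 4. Pecam1 (ENSMUSG00000020717; 11:106654217-106750628, minus strand) encodes PECAM-1 or CD31, an adhesion receptor at endothelial cell contacts. It had 31.6, 25.7, 25.6 and 38.4 CPM in KO, against 28.2, 30.4, 31.9 and 24.6 CPM in WT. The extremes were again KO replicate 4 and WT replicate 4. Its log2 fold change was 0.08 (SE 0.14, 95% interval -0.23 to 0.38; edgeR adjusted p = 0.930), and -0.059 without KO replicate 4.

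Among the 4 transporter genes were the 3 largest fitted differences of the set, and none passed the test. Slc2a1 (ENSMUSG00000028645; 4:119108711-119137983, plus strand) encodes GLUT1, which carries glucose across the barrier. It had 88.8, 83.0, 93.6 and 149.2 CPM in KO, against 91.7, 94.5, 81.3 and 80.0 CPM in WT. KO replicate 4 lay far above the other 7 libraries, which shared a range of 80.0 to 94.5 CPM. The means were 103.7 ± 30.7 CPM in KO and 86.9 ± 7.28 CPM in WT. The log2 fold change was 0.25 (SE 0.17, 95% interval -0.14 to 0.65; edgeR adjusted p = 0.814), and 0.025 without KO replicate 4. The interval covers folds of 0.908 to 1.57.

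Abcb1a (ENSMUSG00000040584; 5:8660077-8748575, plus strand) encodes P-glycoprotein, an efflux pump that keeps many drugs out of the brain. It had 41.3, 30.2, 36.8 and 49.0 CPM in KO, against 37.5, 27.3, 36.4 and 32.7 CPM in WT. KO replicates 1 and 4 exceeded every WT library, while KO replicates 2 and 3 lay within the WT range. Its log2 fold change was 0.23 (SE 0.15, 95% interval -0.10 to 0.56; edgeR adjusted p = 0.799). With KO replicate 4 left out it was 0.11. With KO replicate 2 left out it was 0.34, where the unadjusted p was 0.0258 and the edgeR adjusted p did not pass. With replicate 2 of both genotypes left out it was 0.26, where the unadjusted edgeR p was 0.0433 and the adjusted p did not pass. Exons of Abcb1a share 553 bases with the antisense gene Gm42686, and those of Slc2a1 share 105 bases with the antisense gene Gm12868. The sources used here do not say whether counting used strand, so reads in those stretches cannot be assigned with certainty.

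Slco1a4 (ENSMUSG00000030237; 6:141805440-141856199, minus strand) encodes OATP1A4, a carrier of organic anions such as conjugated hormones and bile acids. It had 60.6, 55.7, 55.4 and 70.7 CPM in KO, against 57.0, 49.5, 58.1 and 50.9 CPM in WT. KO replicates 1 and 4 exceeded every WT library, while KO replicates 2 and 3 lay within the WT range. The means were 60.6 ± 7.12 CPM in KO and 53.9 ± 4.32 CPM in WT. The log2 fold change was 0.17 (SE 0.09, 95% interval -0.03 to 0.37), the lowest unadjusted p of the 10 genes at 0.0842, and the edgeR adjusted p was 0.796. Without KO replicate 4 it was 0.086. Mfsd2a (ENSMUSG00000028655; 4:122946850-122961188, minus strand) encodes a carrier of lysophospholipid-bound docosahexaenoic acid that also holds down transcytosis. It had 19.1, 13.3, 15.6 and 20.1 CPM in KO, against 19.3, 20.1, 14.3 and 14.9 CPM in WT. Both genotypes held high and low libraries, and the log2 fold change was -0.01 (SE 0.15, 95% interval -0.35 to 0.34; edgeR adjusted p = 0.995). Mfsd2a also gave the lowest count of any barrier gene, 402 in KO replicate 2, with an exact Poisson interval (95%) of 363.7 to 443.3 that covers counting error only.

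Neither receptor gene passed the test. Flt1 (ENSMUSG00000029648; 5:147561604-147726011, minus strand) encodes VEGF receptor 1, which binds VEGF-A and in its soluble form limits its supply. It had 92.6, 74.3, 84.8 and 106.2 CPM in KO, against 98.3, 81.4, 81.6 and 86.1 CPM in WT. KO held both the highest and the lowest library, and the log2 fold change was 0.04 (SE 0.11, 95% interval -0.19 to 0.28; edgeR adjusted p = 0.952); it was -0.051 without KO replicate 4. Tek (ENSMUSG00000006386; 4:94739289-94874976, plus strand) encodes TIE2, the angiopoietin receptor that steadies endothelial contacts. It had 21.5, 17.6, 20.1 and 21.2 CPM in KO, against 19.2, 18.1, 21.9 and 16.5 CPM in WT. Tek varied least among KO libraries, with a coefficient of variation of 8.87%, against 29.6% for Slc2a1. Its log2 fold change was 0.08 (SE 0.10, 95% interval -0.13 to 0.30; edgeR adjusted p = 0.880).

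Itm2a (ENSMUSG00000031239; X:107397099-107403376, minus strand) had 70.2, 56.1, 63.8 and 58.7 CPM in KO, against 63.6, 46.9, 71.6 and 56.5 CPM in WT. WT held both the highest and the lowest library. The log2 fold change was 0.06 (SE 0.12, 95% interval -0.21 to 0.33; edgeR adjusted p = 0.940), and -0.037 without WT replicate 2. Among WT libraries the coefficient of variation of the 10 genes ran from 8.02% for Slco1a4 to 20.1% for Cdh5.

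**Figure D2:**
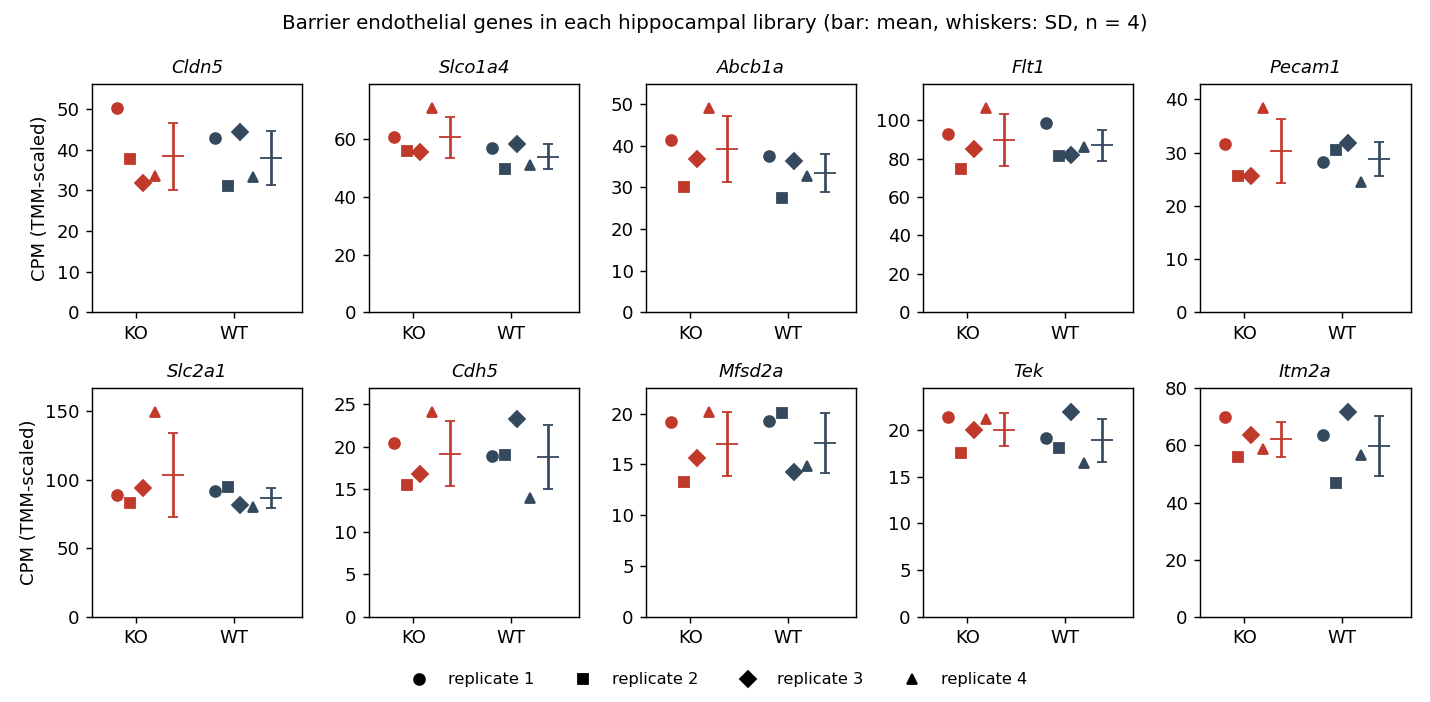
Level of each gene in CPM (vertical axis from 0) in 4 KO and 4 WT libraries, with a marker shape for each replicate number and a bar and whiskers for mean and SD. KO replicate 4 (triangle) holds the highest value of 7 of the 10 genes, most clearly for Slc2a1 at 149.2 CPM.

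**Figure D3:**
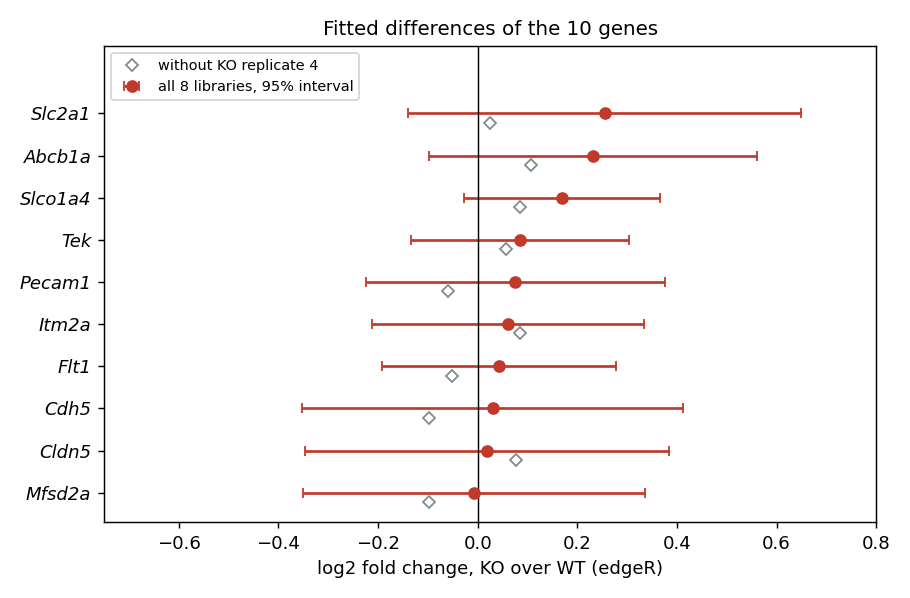
Fitted log2 fold change of KO over WT for each gene with its 95% interval (filled circles, 8 libraries) and without KO replicate 4 (open diamonds). Every interval spans 0, and the value of Slc2a1 moves to 0.025 without that library.

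The barrier genes varied more between libraries of a genotype than between genotypes. The sum over the 10 genes was 496.3, 409.1, 444.3 and 571.1 CPM in KO replicates 1 to 4, against 476.5, 418.3, 464.6 and 409.5 CPM in WT replicates 1 to 4. Their mean log2 level, centred on the 8 libraries, was 0.15, -0.17, -0.06 and 0.26 in KO, against 0.06, -0.11, 0.06 and -0.19 in WT. KO replicate 4 was highest for 7 of the 10 genes: Slco1a4, Abcb1a, Flt1, Pecam1, Slc2a1, Cdh5 and Mfsd2a. WT replicate 2 and WT replicate 4 were each lowest for 4 genes and KO replicate 2 for the other 2.

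**Figure D4:**
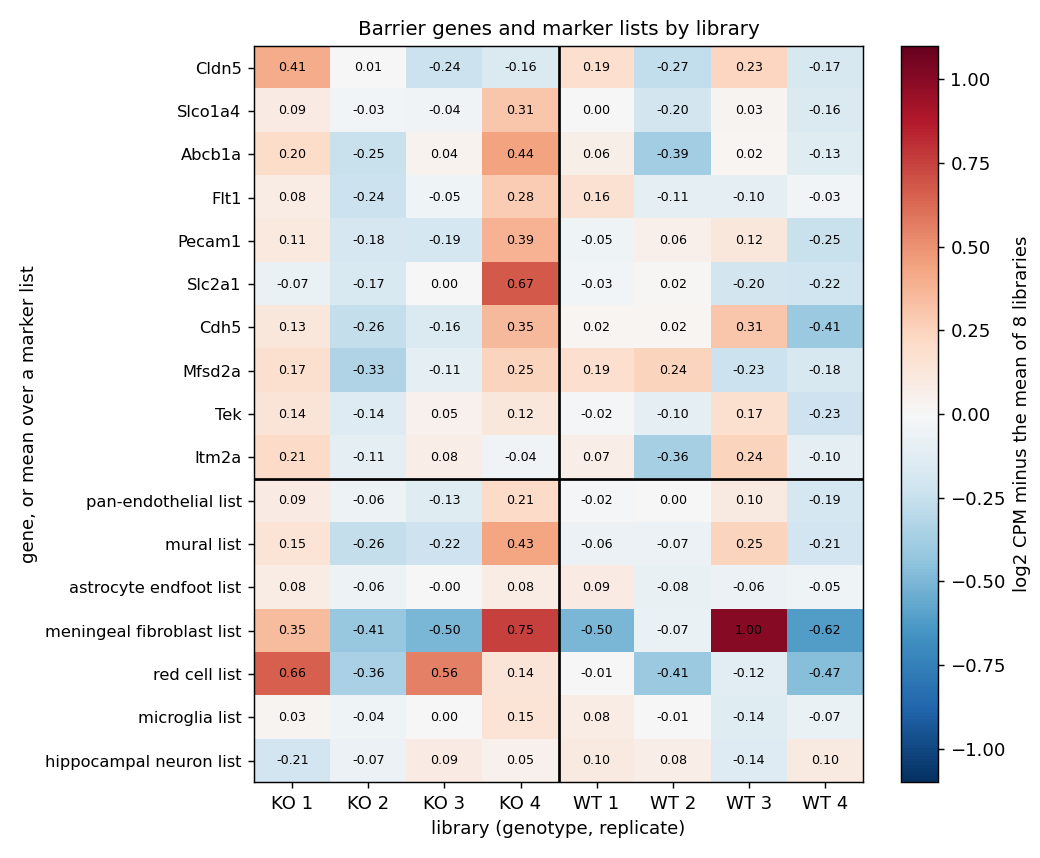
Centred log2 CPM of each barrier gene, and of the mean of 7 marker lists below the line, in 4 KO libraries (left) and 4 WT libraries (right). KO replicate 4 averages 0.26 over the 10 genes and WT replicate 4 averages -0.19.

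Of the 19 listed vessel segment genes, 11 were highest in KO replicate 4. Lcn2, Sele, Selp, Icam1 and Vcam1 are among the 11 and were picked with their values known, so that choice partly set the count. KO replicate 4 was also highest for 14 of 30 pan-endothelial, 9 of 17 mural, 7 of 13 microglial and 0 of 14 choroid plexus genes. It was highest for 5 of 12 further junction, 5 of 18 further transporter, 7 of 19 vascular signalling and 6 of 18 Wnt genes. In the remaining lists it was highest for 3 of 11 astrocyte endfoot, 2 of 12 meningeal fibroblast, 2 of 12 hippocampal neuron and 0 of 5 red cell genes. The share over all genes was not counted. Nr2f2, a factor of venous identity, was not highest in KO replicate 4. It had 25.8 CPM there, against 21.0 to 33.4 CPM in the other KO and 25.1 to 42.9 CPM in the WT libraries. Ephb4, Slc38a5 and Ackr1 are among the 11 and are also named with their values known. In KO replicate 4 they had 13.57, 7.583 and 40.41 CPM. Elsewhere they had at most 9.475, 5.112 and 34.72 CPM. Of the 19 genes, 16 were tested; Lcn2, Sele and Selp did not pass the filter, being near 0 in 7 libraries. Sele, E-selectin, an adhesion molecule that cytokine-stimulated endothelium displays to leukocytes, had 7.01 CPM (219 counts) in KO replicate 4, against 0 to 0.0661 CPM in the other KO and 0 to 0.0675 CPM in the WT libraries. Lcn2, lipocalin-2, an acute phase protein, had 16.7 CPM (522 counts) in KO replicate 4, against 0.0992 to 0.272 CPM in the other KO and 0.0557 to 0.161 CPM in the WT libraries. Selp, P-selectin, had 0.864 CPM in KO replicate 4, against 0.0331 to 0.104 CPM in the other KO and 0 to 0.0675 CPM in the WT libraries. Icam1, a leukocyte adhesion ligand, had 11.1 CPM in that library, against 3.17 to 3.63 CPM in the other KO and 3.20 to 4.83 CPM in the WT libraries. Vwf, von Willebrand factor, is of the pan-endothelial list and not of the vessel segment list. It had 120.5 CPM in KO replicate 4, against 23.0 to 39.1 CPM in the other KO and 27.0 to 48.0 CPM in the WT libraries. Vcam1 had 70.9 CPM there, against 38.5 to 45.6 CPM in the other KO and 35.5 to 62.6 CPM in the WT libraries. Their values were known when these 6 genes were chosen. The part of these levels in the barrier gene values was not tested, and those values without the library are given above.

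Among the genes most above every other library in KO replicate 4 were also Ch25h, which makes 25-hydroxycholesterol (10.1 CPM, against at most 0.674 CPM elsewhere), the chemokine gene Cxcl1 (3.46 CPM, against at most 0.165 CPM) and Lrg1, a glycoprotein of venular endothelium (8.42 CPM, against at most 1.09 CPM). In WT replicate 2 the leading genes were others, among them Ptx3, a pentraxin of inflammation (9.54 CPM, against at most 0.32 CPM elsewhere), Timp1, a metalloproteinase inhibitor (8.85 CPM, against at most 0.512 CPM), and Cd44, a hyaluronan receptor (48.2 CPM, against at most 8 CPM). WT replicate 2 was lowest for Cldn5, Slco1a4, Abcb1a and Itm2a.

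Most pairs of barrier genes moved together over the libraries. Deviations of log2 CPM from the genotype means were correlated over 8 libraries for the 45 pairs. These values are descriptions, since all genes share the same libraries and their depth and tissue makeup. The median r was 0.59 (range -0.35 to 0.94), with 42 pairs above 0 and 27 above 0.5. Without KO replicate 4 the median over 7 libraries was 0.48, with 40 pairs above 0 and 21 above 0.5.

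The closest pair was Pecam1 and Cdh5, both of endothelial cell contacts, with r = 0.94, also without KO replicate 4. The efflux and organic anion carriers Abcb1a and Slco1a4 had r = 0.89 (0.82 without KO replicate 4), and Cdh5 and Tek had r = 0.89 (0.93). Abcb1a and Flt1 had r = 0.87 (0.78). Slc2a1 had r above 0.5 with 6 of the other 9 genes, and with 1 of them without KO replicate 4. That gene was Mfsd2a, at 0.68 over 8 libraries and 0.81 without KO replicate 4. The r of Slc2a1 with Slco1a4 was 0.68 over 8 libraries and -0.16 without KO replicate 4, and with Pecam1 it was 0.75 and 0.24. Cldn5 moved the other way: with Slco1a4 its r was 0.36 over 8 libraries and 0.93 without KO replicate 4, a library in which Cldn5 was low and Slco1a4 high. Cldn5 and Itm2a, the high-tier genes apart from Slc2a1, had r = 0.76 with each other.

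Measured against the mean of the other 9 genes, Slco1a4 followed most closely (r = 0.90), then Cdh5 (0.85), Abcb1a (0.85), Pecam1 (0.83), Tek (0.79) and Flt1 (0.77). Slc2a1 (0.53), Mfsd2a (0.53), Itm2a (0.37) and Cldn5 (0.29) followed less closely. The lower end of this order rests on KO replicate 4. Without that library r was 0.74 for Cldn5 and 0.68 for Itm2a, against 0.61 for Flt1, 0.35 for Mfsd2a and 0.17 for Slc2a1, while Tek (0.86) and Slco1a4 (0.85) were highest. Cldn5 had r above 0.5 with 2 of the other 9 genes over 8 libraries and with 6 without KO replicate 4, and Flt1 with 6 and 2. The windows of Slco1a4, Abcb1a and Itm2a hold the GGAA core 5 times each, and those of Cldn5 and Slc2a1 do not hold it. Whether its count goes with either order was not tested.

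**Figure D5:**
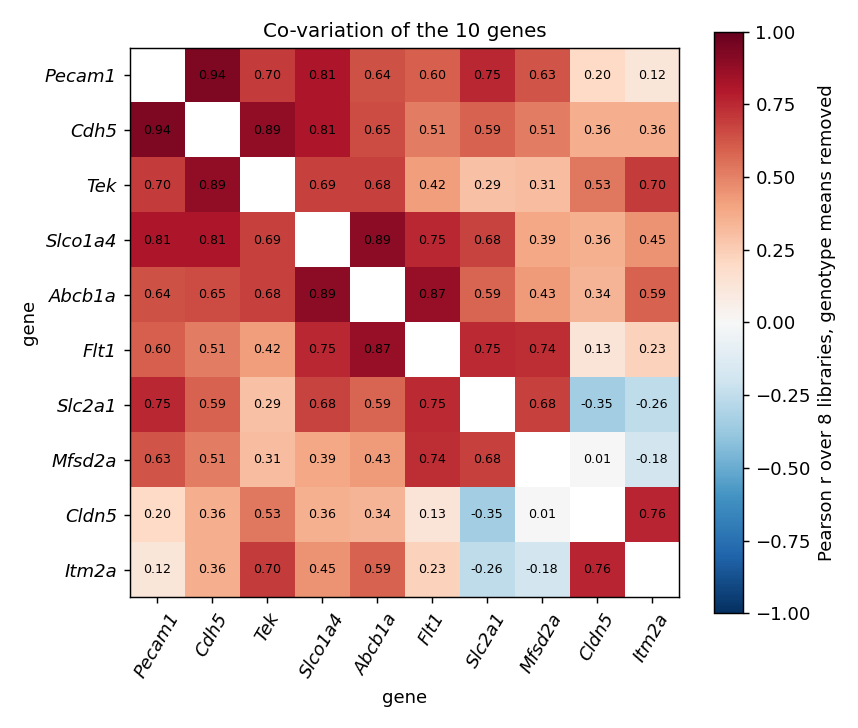
Pearson r between the barrier genes over 8 libraries after removal of genotype means, with genes on both axes. Pecam1, Cdh5, Tek, Slco1a4 and Abcb1a have r of 0.64 to 0.94 with one another, Flt1 has 0.87 with Abcb1a and 0.42 with Tek, and Cldn5 and Itm2a pair at 0.76.

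Outside the set, 14137 tested genes with a mean of at least 1 CPM were compared with the mean deviation of the 10 barrier genes. The 8 named genes most like it were Rnase4 (r = 0.97), Trpm6 (0.97), Catspere2 (0.96), Rasl12 (0.96), Tmem45a (0.95), Nos3 (0.94), Tbx3 (0.94) and Gpr4 (0.94). Rnase4 encodes a secreted ribonuclease, Nos3 the endothelial nitric oxide synthase, Tbx3 a T-box transcription factor and Gpr4 a proton-sensing receptor. Without KO replicate 4 their r was 0.90 to 0.95, and they ranked 16 to 65 in place of 1 to 8. The 8 genes are the highest of 14137 values over 8 libraries. How many genes reach such r by chance was not tested. Trpm6, Catspere2 and Tmem45a were scarce, with means of 0.989, 1.88 and 1.51 CPM in KO and 1.18, 1.89 and 1.26 CPM in WT. Nos3 had 13.7 ± 2.07 CPM in KO and 13.3 ± 0.985 CPM in WT.

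By list, the largest shares of genes varying with the barrier genes were in mural cells, red cells and meningeal fibroblasts. Mural cells are the pericytes and smooth muscle around the vessel. Of 17 mural genes 13 had r above 0.5 with the barrier gene mean (76.5%, median r 0.73, and 0.73 without KO replicate 4), against 9.51% of all 14137 genes. Red cell genes had 4 of 5 above 0.5 (80.0%, median r 0.55, and 0.81 without KO replicate 4). Meningeal fibroblast genes had 8 of 11 above 0.5 (median r 0.69, and 0.60 without KO replicate 4), and pan-endothelial genes 18 of 30 (60.0%, median r 0.55, and 0.40 without KO replicate 4). The share above 0.5 was 60% for vessel segment, 46% for microglial, 44% for further transporter and 42% for vascular signalling genes. It was 39% for Wnt, 36% for astrocyte endfoot and 33% for further junction genes, so most lists exceeded the 9.51% of all genes. Choroid plexus genes had 0 of 14 above 0.5 (median r -0.48), and hippocampal neuron genes 0 of 12 (median r -0.26). The summed mural level was 405 to 622.5 CPM in KO and 411.2 to 557.4 CPM in WT, highest in KO replicate 4 and WT replicate 3. The meningeal fibroblast sum was 251.1 to 463.3 CPM in KO and 215.6 to 643.1 CPM in WT, highest in the same libraries. The choroid plexus sum was 435.9 to 4873 CPM in KO and 256.5 to 3609 CPM in WT, highest in replicate 2 of each genotype. Leaving out those choroid-rich libraries put the median log2 fold change of the barrier genes at 0.15, with 0 called. In that setting 1 of the 10, Abcb1a, had an unadjusted edgeR p under 0.05 (0.0433, log2 fold change 0.26). The part of mural, meningeal, red cell or choroid content in the barrier gene values was not tested.

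No other gene listed for the barrier pathways was called. In each list below edgeR called 0 genes, and counts are of fitted signs, beside the 50.1% of all genes above 0. Genes of a list share the same libraries and their tissue makeup. Their signs are therefore not independent, and the counts are descriptions. Of 12 further junction genes, 9 were above and 3 below 0 (median log2 fold change 0.05, and -0.0095 without WT replicate 4). Jam2, a junctional adhesion molecule, had 58.8 ± 3.01 CPM in KO and 55.4 ± 3.21 CPM in WT, and Ocln, occludin, had 19.7 ± 1.98 CPM in KO and 18.5 ± 2.01 CPM in WT. Marveld2, tricellulin, was scarce at 1.38 ± 0.142 CPM in KO and 1.20 ± 0.225 CPM in WT. None of these 3 had an unadjusted p under 0.05.

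Of 18 further transporters, 10 were above and 8 below 0 (median 0.01, and -0.047 without WT replicate 4), and 1 had an unadjusted p under 0.05. That gene was Slc16a1, the monocarboxylate carrier MCT1, with 52.4 ± 4.81 CPM in KO and 58.6 ± 3.01 CPM in WT (log2 fold change -0.16, SE 0.07, unadjusted p = 0.0462; edgeR adjusted p = 0.796). Abcc4, an efflux pump of organic anions, had 17.0 ± 2.65 CPM in KO and 14.3 ± 1.32 CPM in WT (log2 fold change 0.25, unadjusted p = 0.0524). Slc39a10, a zinc importer, had 155.6 ± 15.3 CPM in KO and 170.2 ± 13.7 CPM in WT.

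Of 19 genes of vascular signalling, 14 were above and 5 below 0 (median 0.06), none with an unadjusted p under 0.05. Nrp1, a VEGF and semaphorin co-receptor, had 83.8 ± 11.9 CPM in KO and 97.7 ± 9.82 CPM in WT (log2 fold change -0.22). Robo4, an endothelial guidance receptor, had 8.48 ± 1.28 CPM in KO and 7.61 ± 0.406 CPM in WT, and Angpt1, a ligand of TIE2, had 11.4 ± 1.60 CPM in KO and 13.4 ± 4.14 CPM in WT. Of 18 genes of Wnt signalling to the barrier, 10 were above and 8 below 0 (median 0.03, and -0.011 without KO replicate 4). Reck, a co-receptor for WNT7 signals, had 18.8, 14.4, 13.7 and 20.6 CPM in KO, against 13.1, 12.5, 14.6 and 13 CPM in WT. The genotypes overlapped at KO replicates 2 and 3. Its log2 fold change was 0.35 (SE 0.13, unadjusted p = 0.0240; edgeR adjusted p = 0.796). The Frizzled receptor gene Fzd6 had 13.9 ± 0.986 CPM in KO and 11.9 ± 1.34 CPM in WT, and Fzd4, the receptor of norrin, had 22.6 ± 2.173 CPM in KO and 19.6 ± 2.41 CPM in WT. Neither had an unadjusted p under 0.05.

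Of 30 pan-endothelial genes, 21 were above and 9 below 0 (median 0.07, and -0.018 without KO replicate 4). Their sum was 2085 to 2270 CPM in KO and 2129 to 2207 CPM in WT. Spock2, given below, and Bsg made up most of this sum, Bsg with 412.1 ± 36.9 CPM in KO and 393.4 ± 17.2 CPM in WT. The sum therefore says little about the other genes of the list. Erg, an ETS factor of endothelial identity, had 7.95, 7.77, 7.58 and 8.54 CPM in KO, against 6.85, 5.92, 7.39 and 6.48 CPM in WT. Every KO library lay above every WT library, where 3.80% of all genes did not overlap in either direction. The log2 fold change was 0.26 (SE 0.10, unadjusted p = 0.0278; edgeR adjusted p = 0.796). Spock2, a testican proteoglycan gene, had 1151 ± 30.2 CPM in KO and 1231 ± 47.2 CPM in WT, every KO library lying below every WT library (log2 fold change -0.10, SE 0.06, unadjusted p = 0.124). Pecam1 had 30.3 CPM in KO and 28.8 CPM in WT in the same bulk tissue. Which cells the Spock2 reads came from was not tested, so its difference cannot be read as endothelial. Adgrf5, an endothelial adhesion receptor, had 53.9 ± 7.70 CPM in KO and 48.0 ± 4.79 CPM in WT. Of 16 tested vessel segment genes, 10 were above and 6 below 0 (median 0.12, and -0.074 without KO replicate 4). Efnb2, an ephrin of arterial endothelium, had 36.7 ± 3.09 CPM in KO and 44.8 ± 10.5 CPM in WT. Nr2f2 had 26.5 ± 5.10 CPM in KO and 32.7 ± 7.43 CPM in WT. Bmx, an arterial kinase, had 2.16 ± 0.620 CPM in KO and 1.63 ± 0.697 CPM in WT.

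In the lists of neighbouring cells edgeR also called 0 genes, and the signs within a list are again not independent. Of 17 mural genes 12 were above 0 (median 0.085), of 11 tested meningeal fibroblast genes 7 (median 0.05), of 14 choroid plexus genes 13 (median 0.30) and of 12 hippocampal neuron genes 5 (median -0.07). The medians without KO replicate 4 were -0.11 for mural and -0.30 for meningeal genes, and without WT replicate 3 the meningeal median was 0.51. The choroid plexus median was -0.63 without KO replicate 2 and 1.13 without WT replicate 2, and 1.40 by limma-voom. The neuronal median was 0.010 without KO replicate 1. Of 11 astrocyte endfoot genes 8 were above 0 (median 0.06). Gjb6, connexin 30 of astrocytes, had 64.6 ± 12.8 CPM in KO and 53.9 ± 10.1 CPM in WT (unadjusted p = 0.146). Of 13 microglial genes 12 were above 0 (median 0.07), and Siglech had 21.2 ± 1.20 CPM in KO and 18.3 ± 1.497 CPM in WT (log2 fold change 0.21, SE 0.08, unadjusted p = 0.0194; edgeR adjusted p = 0.796). Red cell genes were above 0 for 5 of 5 (median 0.58), each with an unadjusted edgeR p under 0.05, against 6.16% of all genes. These 5 genes share the same libraries and are not 5 separate results. Their median was 0.39 without KO replicate 1, 0.76 without KO replicate 2 and 0.42 by limma-voom. The red cell sum was 79.0 to 174.2 CPM in KO and 69.2 to 102.4 CPM in WT. Hba-a1 had 14.3 ± 3.78 CPM in KO and 9.95 ± 1.77 CPM in WT (log2 fold change 0.53, SE 0.20, unadjusted p = 0.0237; edgeR adjusted p = 0.796), a level that is uncertain since the near-identical Hba-a2 can share its reads. The red cell sum was highest in KO replicates 1 and 3 and the barrier gene sum in KO replicates 4 and 1, and both were high in KO replicate 1.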

How the data were processed

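Whole-number read counts per Ensembl gene were deposited by the authors as raw counts, 1 column for each of 8 libraries, without normalization. Per the submitters' processing notes, bcl2fastq 2.17.1.14 and genome build mm10 were used. Aligner, counter, annotation release and use of strand: not given in the sources used here. Gene names and positions came from GENCODE M21 of the same build, which matched 31292 of 31417 IDs.

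Counts were scaled by TMM and fitted in edgeR 4.0.16 (R 4.3.3) with filterByExpr, a robust quasi-likelihood F test of KO against WT over 16228 genes, and Benjamini-Hochberg adjustment, with a gene called at an adjusted p under 0.05. The biological coefficient of variation was 13.3%, and 1 count equalled 0.0274 to 0.0341 CPM. Pairs of libraries of a genotype differed beyond sampling noise (chi-square per degree of freedom 8.85 to 40.9), so all 8 were kept. Spread and correlations used log2(CPM + 0.5). PCR reads carry no molecular identifiers, so counting intervals cover counting error only. The pipeline was tested on simulated data.

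Alternatives were DESeq2 1.42.0, limma-voom (limma 3.58.1) with quality weights, other scaling factors, no filter or 1 CPM in 4 libraries, the replicate number as a block and each library left out. The barrier genes, the other lists and the tests were chosen with earlier results of these data known. Named by rule were Dclk3, the 10 genes, up to 3 genes of each list with the lowest p, and the 8 genes most like the barrier gene mean. Others were chosen after their values were seen.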

Additional observations from a re-analysis of the deposited data

Results flagged for a closer look

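For groups of 4 libraries, a value was singled out where its gap to the nearest other library took a share of the group's range above Dixon's 95% critical value. Chance singles out about 1 group in 20, and 10 of 140 groups were singled out, 6 of the examined genes having been added after their values were seen. Lcn2, Sele, Selp, Icam1 and Vwf, singled out below, are among those added genes. The count of 10 therefore cannot be read against chance. Slc2a1 was 149.2 CPM in KO replicate 4, against 83.0 to 93.6 CPM in the other KO libraries. The summed level of the 12 further junction genes was 570.4 CPM in KO replicate 4, against 512 to 520.6 CPM in the other KO libraries. In the same library Lcn2 was 16.7 CPM, against 0.0992 to 0.272 CPM in the other KO libraries, Sele 7.01 CPM, against 0 to 0.0661 CPM, and Selp 0.864 CPM, against 0.0331 to 0.104 CPM. Icam1 was 11.1 CPM there, against 3.17 to 3.63 CPM, and Vwf 120.5 CPM, against 23.0 to 39.1 CPM. Jam2 was 54.3 CPM in KO replicate 2, against 59.6 to 60.7 CPM in the other KO libraries. Notch3, a mural receptor gene, was 31.5 CPM in WT replicate 2, against 21.9 to 23.5 CPM in the other WT libraries. Dclk3 was 39.3 CPM in WT replicate 2, against 20.8 to 23.5 CPM in the other WT libraries.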

How the results depend on the processing

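Over 17 alternatives, the 10 barrier genes gave 170 values, of which 145 kept their sign and 25 did not; 0 passed the threshold, with a lowest adjusted p of 0.658. The count of all genes called was 0, against 5 by DESeq2, 1 with the replicate block, 1 without the choroid-rich libraries, 2 without KO replicate 4 and WT replicate 2, and 0 to 1 with each library left out in turn. Genes at an unadjusted p under 0.05 were 1000, against 1505 by limma-voom, 502 without the choroid-rich libraries and 556 (without WT replicate 4) to 1777 (without KO replicate 4) with each library left out. The median log2 fold change of the 10 genes was 0.068, 0.067 with the replicate block, 0.029 to 0.16 with each library left out and -0.0059 by limma-voom, where 4 of the 10 were above 0. Same-numbered KO and WT libraries deviated together with r of 0.179, 0.131, -0.281 and 0.00076, so the numbers were not taken to pair the samples. Signs turned for Mfsd2a with upper quartile factors (0.013) and the 1 CPM filter (0.0021), without KO replicates 2 or 3 or WT replicates 1 or 2 (0.097, 0.030, 0.054, 0.080) and without the choroid-rich libraries (0.18). With limma-voom Cldn5 was -0.052, Flt1 -0.067, Pecam1 -0.0064, Cdh5 -0.043 and Itm2a -0.0054. Cldn5 was -0.13, -0.061 and -0.039 without KO replicate 1, WT replicate 2 or WT replicate 4, and -0.051 without the choroid-rich libraries. Without KO replicate 4, Flt1 was -0.051, Pecam1 -0.059 and Cdh5 -0.098; Cdh5 was -0.088 without WT replicate 4 and Itm2a -0.037 without WT replicate 2. Without KO replicate 4 and WT replicate 2, Flt1 was -0.070, Pecam1 -0.019, Cdh5 -0.082 and Itm2a -0.0032. With each library left out in turn, the range was -0.13 to 0.11 for Cldn5, -0.051 to 0.12 for Flt1, -0.059 to 0.15 for Pecam1, -0.098 to 0.15 for Cdh5 and -0.037 to 0.17 for Itm2a. The cause of these turns was not tested. The intervals of single genes span 0 and limit what 4 libraries a genotype can show. Settings without the choroid-rich libraries, or without KO replicate 4 and WT replicate 2 together, were chosen after seeing the data.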
